A study of Danio rerio with 16 samples.

Results

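Uninjured heart ventricles of adult nr4a1 mutant zebrafish were compared with uninjured ventricles of adult wild-type zebrafish, to ask which genes already differed between the genotypes before cryoinjury, at 0 days post-cryoinjury (dpci). The comparison used 4 of the 16 bulk RNA-seq samples of the series, 2 from nr4a1 mutants and 2 from wild type. It covered the 17413 of 31351 listed genes that had at least 10 counts in at least 2 of these 4 samples. The mutants (nr4a1-/-) carried the nc40 allele, a CRISPR/Cas9-generated insertion in the second exon of nr4a1 whose reading frame meets an early stop codon. The allele is carried by every cell of the fish, so that a difference in the ventricle can arise in any of its cell types or outside the heart. No injury or treatment is given for any of the 4 samples, and the fish were no older than a year. How many ventricles went into a sample, the sex of the fish and the hour of collection are not given in the sources used here. P-values therefore measure only the spread between replicate samples, which the fit pooled over all 16 samples and across genes. As a coefficient of variation between replicates, its common value was 3.4%. The remaining 12 samples, collected at 2, 7 and 21 dpci from both genotypes, shared the estimate of spread and gave the genotype difference at each later time point.

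Nr4a1, also called Nur77, is an orphan nuclear receptor whose transcript appears within minutes to hours of many stimuli, and in mouse macrophages it restrains inflammatory gene expression. Its paralogs Nr4a2 and Nr4a3 bind the same DNA element. The ventricle is built of cardiomyocytes, lined by endocardium, threaded by coronary vessels with mural cells, covered by epicardium with fibroblasts below it, and visited by macrophages and circulating blood cells. Because whole ventricles were sequenced, fewer cells of a type and less RNA per cell cannot be told apart in any value below.

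Library totals were 23618958 and 23283875 counts in mutants, against 27668498 and 26740945 counts in wild type. Samples of a genotype lay close together, at a Euclidean distance over log2 expression of 42.9 between the mutants and 41.8 between the wild-type samples, against 91.6 to 93.3 between genotypes. Cardiomyocyte genes were highly expressed, and the cardiac myosin light chain gene myl7 had 10638 and 11875 CPM in mutants against 15328 and 16118 CPM in wild type, a difference at the threshold (−0.48, and −0.56 and called without mutant sample 2, −0.52 without wild-type sample 1). The fast skeletal muscle markers mylpfa and tnnt3a, the liver markers fabp10a and apoa2 and the neuronal marker elavl3 had at most 8 counts in any of the 4 samples. The skeletal myosin gene myhz1.1 had 10 to 19 counts and the myelin gene mbpa 8 to 21 counts, and neither was called. The peripheral myelin gene mpz was present, with 3.1 and 3.66 CPM in mutants against 5.34 and 4.65 CPM in wild type (−0.56, not called without mutant sample 1 or wild-type sample 1, at −0.45 and −0.46). The lymphocyte markers lck, zap70 and cd79a stayed under 2 CPM in every sample, so that little can be said about lymphocytes at this depth.

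With edgeR's quasi-likelihood test, 2181 genes were higher and 2183 lower in uninjured mutants with p below 0.05 after Benjamini-Hochberg adjustment and a change beyond 0.5 on the log2 scale. Each direction held 12.5% of the tested genes, and both together 25.1%. These genes are called higher or lower in the following, and a fold change is always mutant over wild type. The typical called gene moved less than 2-fold, with medians of 0.90 and −0.86 on the log2 scale, and 937 genes were higher and 860 lower by more than 1. When the threshold of 0.5 was placed inside the test itself, 1097 genes were higher and 1102 lower. The called genes held 8.79% of all CPM in mutants and 10.2% in wild type, where CPM is the count relative to the library total scaled by edgeR's TMM factors, and the median of all tested genes was 0.015 on the log2 scale. Most of the messages that fill a ventricular library thus lay outside the called set. A gene that was not called need not be unchanged. Without the limit of 0.5, 4232 genes were higher and 3891 lower with an adjusted p below 0.05 in the same edgeR test. Values after ± are standard errors (SE) of the fitted log2 fold change. The samples of the genotypes did not overlap for 4358 of the 4364 called genes, but neither did they for 71.8% of all tested genes. To find the pathways and cell types behind the difference, 64 gene lists were read against the 12.5% of all tested genes called in each direction. They held 2569 tested genes, of which 698 (27.2%) were called, and 3666 called genes were in no list.

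**Figure D1:**
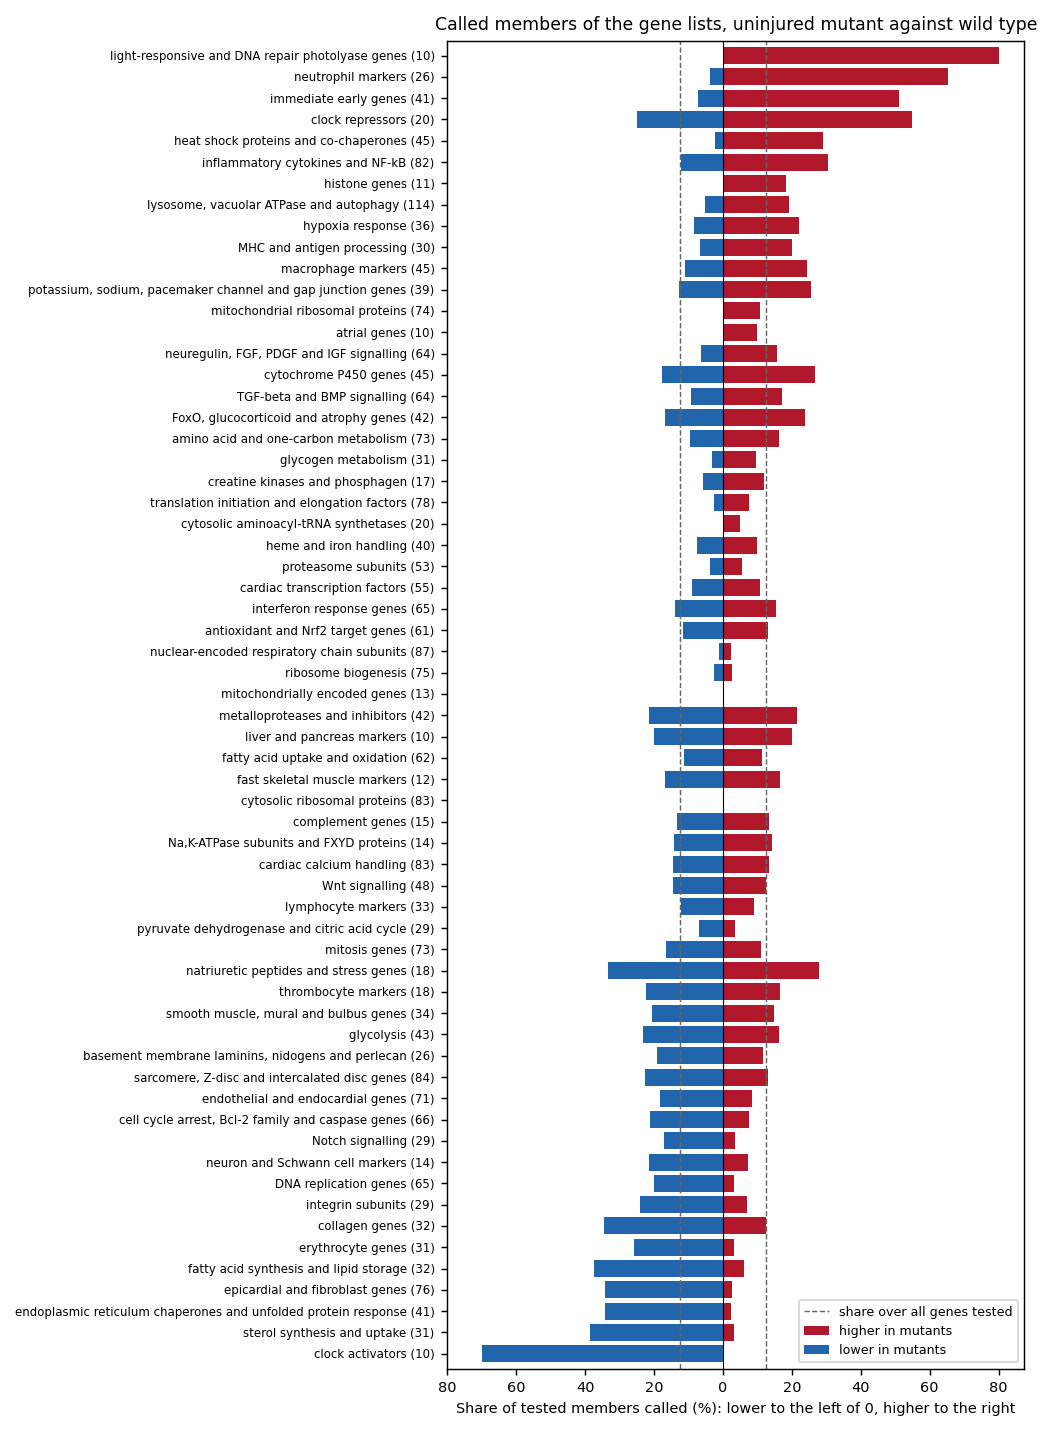
Share of the tested members of each gene list that were called higher in uninjured mutants (red, to the right, in percent) or lower (blue, to the left), for the lists with at least 10 tested members and with the number tested in parentheses. Dashed lines mark the 12.5% of all 17413 tested genes called in each direction. Light-responsive genes, neutrophil markers and immediate early genes stand at the upper end, and clock activators, sterol synthesis genes and endoplasmic reticulum chaperones at the lower end.

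The NR4A family itself was higher in uninjured mutants, in 3 of its 4 members. The nr4a1 transcript was not lower in the mutants, with 56.1 and 54.4 CPM in mutants against 19.2 and 21.7 CPM in wild type (by edgeR, log2 fold change 1.44 ± 0.060 SE, adjusted p = 3.14e-30). The insertion lies within the transcript, so its count does not report on the protein. Its paralog nr4a3 had 41.6 and 42.9 CPM in mutants against 3.75 and 2.7 CPM in wild type (by edgeR, log2 fold change 3.7 ± 0.13 SE, adjusted p = 4.41e-35), whereas nr4a2a was not called (−0.33). The third member, nr4a2b (0.74), lost its call without mutant sample 1 (0.55) or wild-type sample 1 (0.54). Other early-response genes were read as a list of 41 immediate early genes, whose transcripts need no new protein to be induced. Of these, 21 were higher and 3 lower, at a median of 0.51. The stress-responsive factor atf3 stood apart with 122 and 121 CPM in mutants against 7.02 and 6.34 CPM in wild type (by edgeR, log2 fold change 4.18 ± 0.076 SE, adjusted p = 5.81e-50). Among the higher members were genes of AP-1 subunits, jund with 126 and 116 CPM in mutants against 48.5 and 48.8 CPM in wild type and fosab with 60.1 and 58 CPM in mutants against 26.2 and 25.8 CPM in wild type. The AP-1 genes fosb (2.01), fosl1a (1.62), junba (0.66) and jun (0.71) were also higher. The growth-response factor gene egr3 (0.89) was higher, as was the phosphatase gene dusp1 (0.66), whose product switches off MAP kinases. Against this direction, both zebrafish copies of the Krüppel-like repressor gene klf11 were lower. The copy klf11b had 43.5 and 41.3 CPM in mutants against 160.4 and 149.6 CPM in wild type, and klf11a had a log2 fold change of −1.68.

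In the circadian clock, most repressor genes were higher and most activator genes lower in uninjured mutants. In this feedback loop Clock and Bmal proteins (genes clocka, clockb, arntl1a and arntl1b) switch on per, cry, nr1d, ciart and bhlhe genes, whose products repress them in turn, while Ror proteins activate and Nr1d proteins repress the Bmal genes. Zebrafish tissues outside the brain also carry clocks of their own that light can set. Of 20 repressor genes 11 were higher and 5 lower (median 0.82), and of 10 activator genes none was higher and 7 were lower (median −1.53).

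Among the repressors, per1a had 18 and 19.7 CPM in mutants against 1.39 and 1.73 CPM in wild type (by edgeR, log2 fold change 3.59 ± 0.15 SE, adjusted p = 2.32e-30). The second per1 copy, per1b, had 189 and 187 CPM in mutants against 56.7 and 55.3 CPM in wild type, and per2, whose transcription light induces, had 162 and 160.1 CPM in mutants against 51.1 and 52.5 CPM in wild type. Samples of the genotypes stood far apart for each of these period genes. The nuclear receptor gene nr1d1, encoding Rev-erb alpha, had 41.5 and 39.4 CPM in mutants against 6.77 and 7.65 CPM in wild type, and the helix-loop-helix repressor gene bhlhe41 had 81.2 and 82.8 CPM in mutants against 15.4 and 12.3 CPM in wild type. The list members ciarta (2.47), ciartb (1.55), cry2 (1.52), per3 (0.82) and nr1d2b (0.79) were higher too. The list was not uniform, since cry3a (−1.1), cry3b (−0.93), cry4 (−1.04) and nr1d2a (−0.93) were lower. Whether the product of every listed cry gene acts as a repressor was not tested here. The remaining lower member, nr1d4b (−1.34), lost its call without mutant sample 1 (−1.1) or wild-type sample 1 (−1.19).

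Among the activators, the Bmal1 genes arntl1a and arntl1b and the Bmal2 gene arntl2 were all lower. arntl1b had 2.77 and 2.46 CPM in mutants against 16.3 and 16.3 CPM in wild type (by edgeR, log2 fold change −2.64 ± 0.15 SE, adjusted p = 4.43e-23), and arntl1a had 6.77 and 6.75 CPM in mutants against 24.7 and 24.4 CPM in wild type. The Ror-gamma gene rorcb had 4.18 and 3.37 CPM in mutants against 65.3 and 61.4 CPM in wild type and its paralog rorca had 14.1 and 14.6 CPM in mutants against 50.4 and 46.1 CPM in wild type. The Clock genes clocka (−1.32) and clockb (−0.73) were lower by less, and roraa (−0.077) and rorab (−0.19) were not called. The Clock paralog gene npas2 (−0.33) was called lower only without mutant sample 1 (−0.64). Factors that carry clock phase to other genes followed the same split. The PAR bZIP activators dbpa (2.18), tefb (1.18) and tefa (1.14) were higher, while nfil3-5, a member of the Nfil3 family that competes for their sites, had 2.12 and 3.18 CPM in mutants against 112 and 111 CPM in wild type (by edgeR, log2 fold change −5.39 ± 0.097 SE, adjusted p = 4.73e-50), and nfil3 (−0.99) was also lower. Of 10 light-responsive and DNA repair genes, 8 were higher and none lower. They included cry-dash, with 21.9 and 23.6 CPM in mutants against 3.43 and 4.18 CPM in wild type, the photolyase genes cry5 (1.69) and cpdp (0.92), and the ultraviolet damage sensor gene ddb2 (1.45). Whether the genotypes were collected at the same hour is not known, so that the hour of collection and the genotype cannot be told apart for clock genes and for any gene that follows them.

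**Figure D2:**
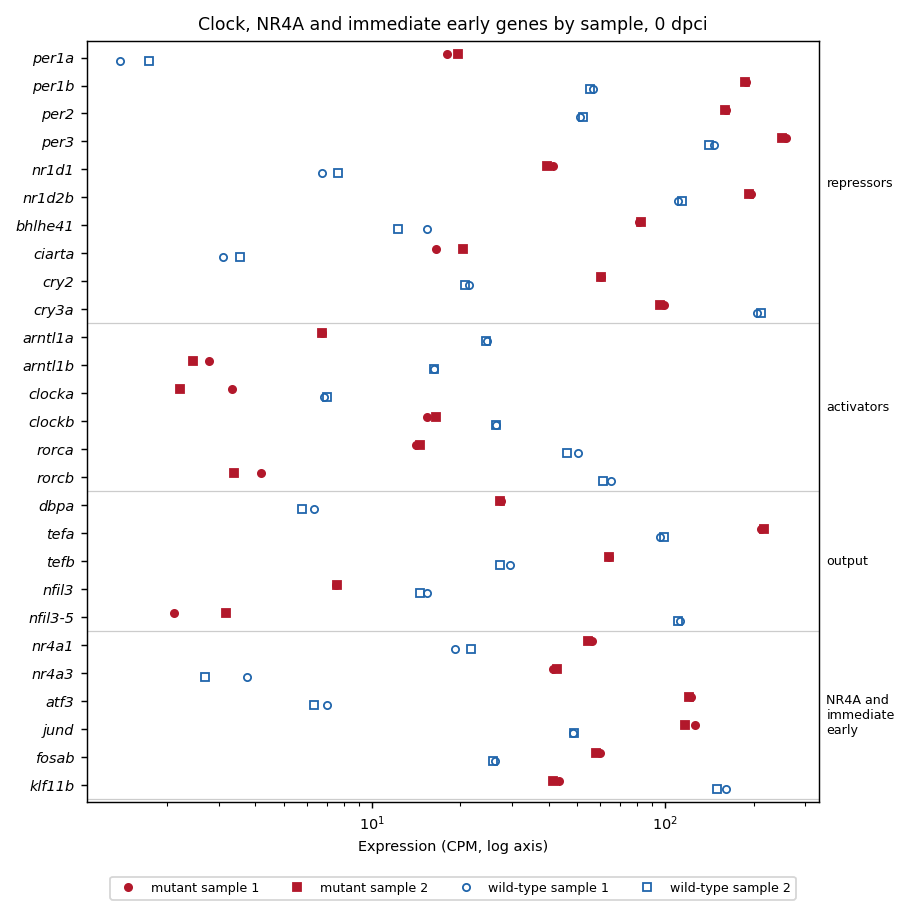
Expression in CPM on a log axis of clock repressors, clock activators, clock output factors and NR4A or immediate early genes in the 2 uninjured mutant samples (filled red) and the 2 uninjured wild-type samples (open blue). Mutant points lie to the right of wild-type points for 9 of the 10 repressors shown and to the left for all 6 activators shown.

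Several cytosolic heat shock genes were higher in uninjured mutants, while several chaperones of the endoplasmic reticulum were lower. Of 45 heat shock protein and co-chaperone genes 13 were higher and 1 lower. The inducible gene hsp70.2 had 17.9 and 17.4 CPM in mutants against 2.65 and 3.42 CPM in wild type, and hsp70l (2.26), hsp70.1 (2.13) and hsp70.3 (1.5) were higher as well, although these copies are near-identical and the counts may be split between them. The inducible Hsp90 gene hsp90aa1.2 had 120.0 and 115 CPM in mutants against 48.5 and 47.3 CPM in wild type. The co-chaperone gene bag3 had 167 and 159.8 CPM in mutants against 76.5 and 76.8 CPM in wild type, and its partner hspb8 (0.94) and the heat shock factor genes hsf1 (0.67) and hsf2 (1.06) were higher. The constitutive chaperone gene hspa8 was not called (−0.19), and the Hsp110 gene hspa4a (−0.78) was lower.

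Of 41 genes for endoplasmic reticulum chaperones and the unfolded protein response, 1 was higher and 14 were lower, at a median of −0.26. The protein disulfide isomerase gene p4hb, which is also the beta subunit of collagen prolyl hydroxylase, had 112 and 110.5 CPM in mutants against 197 and 204 CPM in wild type (by edgeR, log2 fold change −0.85 ± 0.047 SE, adjusted p = 2.41e-24). Its relatives pdia6 (−0.72), pdia5 (−0.61) and pdia4 (−0.60), the chaperone genes hsp90b1 (−0.63) and hyou1 (−0.55), and the degradation genes herpud1 (−0.70) and derl3 (−0.65) were lower by similar amounts. The stress kinase gene eif2ak3, encoding Perk, had 10.8 and 11 CPM in mutants against 24.4 and 21.8 CPM in wild type. The main chaperone gene hspa5 (0.17) and the response factor gene xbp1 (0.46) were not called.

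Many genes for making sterols and fatty acids were lower in uninjured mutants. Of 31 sterol genes 1 was higher and 12 were lower (median −0.36), and of 32 genes for fatty acid synthesis and lipid storage 2 were higher and 12 lower (median −0.25). The transcription factor gene srebf1, which drives lipid synthesis genes, had 31.7 and 28.1 CPM in mutants against 65.9 and 62.5 CPM in wild type. The squalene epoxidase gene sqlea (−2.63), the value of which ran from −3.86 without mutant sample 2 to −1.96 without mutant sample 1, was lower. The demethylase gene cyp51 (−1.76), the lanosterol synthase gene lss (−1.67) and the sterol sensor gene insig1 (−1.74) were lower. The low-density lipoprotein receptor gene ldlrb had 1.36 and 1.35 CPM in mutants against 3.87 and 3.97 CPM in wild type, and the only member to be higher was the cholesterol exporter gene abca1b (1.07).

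On the fatty acid side, the desaturase gene scd had 3.76 and 4.15 CPM in mutants against 67 and 60.9 CPM in wild type (by edgeR, log2 fold change −4.01 ± 0.12 SE, adjusted p = 2.59e-37), and its paralog scdb (−2.86) was lower too, with −4.35 without mutant sample 2 and −2.13 without mutant sample 1. Fatty acid synthase, fasn, had 83.8 and 79.5 CPM in mutants against 150.0 and 147 CPM in wild type. The gene of the lipid droplet coat protein plin2 had 2.12 and 1.45 CPM in mutants against 8.08 and 7.14 CPM in wild type, and the triglyceride synthesis genes dgat2 (−1.44) and lpin1 (−1.11) and the droplet gene cidec (−1.43) were lower. Among 62 genes of fatty acid uptake and oxidation 7 were higher and 7 lower, or 11.3% in each direction against 12.5% of all tested genes. Nothing is read from this count, and single members are given for their values. Lipoprotein lipase, lpl, had 358 and 356 CPM in mutants against 141 and 136 CPM in wild type, while its inhibitor angptl4 (−1.01) was lower. The malonyl-CoA decarboxylase gene mlycd, whose product lifts a brake on fatty acid entry into mitochondria, had 2.73 and 2.51 CPM in mutants against 10.1 and 10.02 CPM in wild type, and the pyruvate dehydrogenase kinase gene pdk2a had 108 and 106 CPM in mutants against 314 and 331 CPM in wild type.

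Glycolysis genes moved in both directions, with 7 of 43 higher and 10 lower, often within a set of paralogs. The pyruvate kinase gene pkmb had 55.8 and 60.1 CPM in mutants against 219 and 215 CPM in wild type. The phosphofructokinase gene pfkma (−1.66) was lower (−1.04 without wild-type sample 1), and the regulatory gene pfkfb3, whose product stimulates phosphofructokinase, had 25.3 and 23.6 CPM in mutants against 6.81 and 6 CPM in wild type while pfkfb4a (−0.82) and pfkfb4b (−0.61) were lower. Hexokinase hk2 (−0.88) was lower and the glucose phosphate isomerase gene gpib (1.12) was higher. In amino acid and one-carbon metabolism, 12 of 73 genes were higher (16.4%) and 7 lower (9.59%). Together this is 26%, against 25.1% of all tested genes, and nothing is read from the count. The 7 lower ones are not named here, and the lowest value of the list was −0.85. Single higher members are given for their values. They included the serine synthesis gene phgdh (1.36), the cystine importer gene slc7a11 (2.27), the ornithine decarboxylase gene odc1 (1.53) and the proline synthesis gene pycr1a (1.35). The branched-chain aminotransferase gene bcat1 (2.39) was also higher, with 33 and 23 counts in mutants against 6 and 6 in wild type. It passed the count minimum through the mutants only.

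The large housekeeping complexes stood well below the background share of 25.1%. Of 87 nuclear-encoded respiratory chain genes 2 were higher and 1 lower, and of 13 mitochondrially encoded genes none was called. None of 83 cytosolic ribosomal protein genes was called. Of 74 mitochondrial ribosomal protein genes 8 were higher (5 without mutant sample 2 or without wild-type sample 1) and none lower, and of 53 proteasome genes 3 were higher and 2 lower. Few genes of these complexes passed the threshold. Shifts below it were seen, since all 13 mitochondrially encoded genes had log2 fold changes above 0, between 0.065 and 0.41. Their summed level was 187498 and 190550.0 CPM in mutants against 163793 and 167961 CPM in wild type. Of the mitochondrial ribosomal protein genes 62 of 74 were above 0.

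Most neutrophil genes were higher in uninjured mutants. Of 26 neutrophil markers, 17 were higher and 1 lower (median 0.88), and the summed level of the list was 389 and 411 CPM in mutants against 327 and 349 CPM in wild type. Much of that sum came from srgn, a proteoglycan gene of granules that other blood cells also express, which had 181 and 193 CPM in mutants against 204 and 221 CPM in wild type and was not called. Myeloperoxidase, mpx, the classical granule marker, had 17.8 and 17.4 CPM in mutants against 4.49 and 3.72 CPM in wild type (by edgeR, log2 fold change 2.1 ± 0.14 SE, adjusted p = 5.04e-21). The subunit gene ncf1 of the phagocyte NADPH oxidase had 11.6 and 11.1 CPM in mutants against 3.63 and 3.85 CPM in wild type, and its membrane partner cybb had 20.3 and 21.9 CPM in mutants against 8.2 and 8.16 CPM in wild type. The oxidase gene ncf4 (0.83) rose with them. The collagenase gene mmp13a had 8.41 and 7.23 CPM in mutants against 2.65 and 3.3 CPM in wild type, and the granule protease gene npsn (1.38) and the chemotaxin gene lect2l (1.76) were higher. The lysozyme gene lyz had only 16 and 20 counts in mutants against 6 and 7 in wild type. It passed the count minimum through the mutants only, and its call was lost without mutant sample 2 (1.46) or wild-type sample 1 (1.51).

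Macrophage genes did not move as a block. Of 45 markers 11 were higher and 5 lower (median 0.28), and the summed level was 1027 and 1039.6 CPM in mutants against 838 and 844 CPM in wild type. The pore-forming protein gene mpeg1.1 had 27.2 and 26.9 CPM in mutants against 13.4 and 12 CPM in wild type and the growth factor receptor gene csf1ra had 19.9 and 21.9 CPM in mutants against 14.3 and 12.9 CPM in wild type, while the defining markers marco (−0.19) and mfap4 (0.47, or 0.51 and called without wild-type sample 2) were not called. The itaconate-forming enzyme gene acod1, which activated macrophages express, had 6.86 and 7.13 CPM in mutants against 2.61 and 2.75 CPM in wild type. The granulin genes grn1 (1.04) and grn2 (3.14) were higher, the value of grn2 being 3.88 without wild-type sample 1. The gene grn2 had 25 and 31 counts in mutants against 5 and 2 in wild type. It passed the count minimum through the mutants only. The phosphatidylserine receptor gene timd4 was lower, with 4.7 and 4.24 CPM in mutants against 8.24 and 9 CPM in wild type, and log2 fold changes were −0.86 and −0.60 for the mannose receptor genes mrc1a and mrc1b. The integrin gene itgam, shared by neutrophils and macrophages, had 1.6 and 1.45 CPM in mutants against 6.36 and 5.03 CPM in wild type, opposite to mpx and mpeg1.1. It was not among the 26 neutrophil markers counted above, the lowest value of which was −0.76. Lysosome and autophagy genes, abundant in phagocytes but present in every cell, were higher in 22 and lower in 6 of 114 (median 0.19). Among the higher ones were ctsbb (1.99), ctsc (0.72) and lamp1a (0.63). The gene ctsbb had 16 and 16 counts in mutants against 5 and 4 in wild type. It passed the count minimum through the mutants only.

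Several inflammatory ligand genes were higher while several genes of NF-kB and Stat signalling were lower. Of 82 cytokine and NF-kB genes 25 were higher and 10 lower. The interleukin gene il11a, which supports regeneration in zebrafish, had 4.37 and 4.34 CPM in mutants against 0.612 and 0.549 CPM in wild type. The neutrophil attractant gene cxcl8a had 1.46 and 0.964 CPM in mutants against 0.204 and 0.211 CPM in wild type, and il1b had 2.68 and 3.52 CPM in mutants against 1.1 and 1.44 CPM in wild type, at low levels in both genotypes. Each wild-type sample held only 5 counts of cxcl8a, so that this gene met the count minimum by its mutant samples alone. The prostaglandin synthase genes ptgs2a (0.84) and ptgs2b (0.81) and the feedback inhibitor gene socs3a (0.88) were higher. The transcription factor gene stat3 had 76.9 and 69.5 CPM in mutants against 135 and 137 CPM in wild type, the NF-kB gene nfkb2 had 23.2 and 24.1 CPM in mutants against 63.1 and 72.1 CPM in wild type, and the inhibitor genes nfkbiaa (−0.63) and nfkbib (−0.95) were lower. The chemokine gene ccl27a had 0 and 0 counts in mutants against 27 and 31 counts in wild type. It passed the count minimum through wild type only. The tumor necrosis factor gene tnfa fell below the count minimum and was not tested.

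Of 65 interferon-related genes 10 were higher (15.4%) and 9 lower (13.8%), near the background of 12.5% in each direction, so that the count shows no pattern of the list. Single members are given for their values. The immunoproteasome gene psmb8a had 50.9 and 58.8 CPM in mutants against 14.8 and 14.6 CPM in wild type, and the MHC-linked proteasome genes psmb9a (1.28) and psmb12 (1.38) were higher. The interferon regulatory factor gene irf1b had 75.9 and 71.5 CPM in mutants against 37.4 and 36.8 CPM in wild type, and the antigen loading gene tapbp.1 (1.04) and peptide trimming gene erap1a (0.70) were higher. Members that were lower included rsad2, the gene of the antiviral protein viperin, with 3.06 and 3.18 CPM in mutants against 7.5 and 7.52 CPM in wild type. Log2 fold changes were −0.93 for the RNA sensor dhx58, −0.98 for helz2 and −0.93 for mxe. The signalling gene stat2 (−0.75) was lower too. MHC class I genes moved both ways, as mhc1zja (1.42) was higher and mhc1uka (−1.89) was lower. MHC loci differ in sequence and gene content between zebrafish strains, and how reads of the samples' own haplotypes were counted was not tested.

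Several red blood cell genes were lower. Of 31 erythrocyte genes 1 was higher and 8 were lower (median −0.29), and their summed level was 1859 and 1854 CPM in mutants against 2912 and 2885 CPM in wild type. The globin gene hbba1 had 391 and 403 CPM in mutants against 891 and 889 CPM in wild type (by edgeR, log2 fold change −1.16 ± 0.031 SE, adjusted p = 4.39e-41), and hbaa1 had 539 and 529 CPM in mutants against 873 and 838 CPM in wild type. Globin copies are near-identical, and their counts may be split, as for hbba2 (−2.13) and hbaa2 (−2.44). The anion exchanger gene slc4a1a of the red cell membrane had 21.2 and 23.6 CPM in mutants against 45.9 and 50.8 CPM in wild type, and the carbonic anhydrase gene cahz had 38.7 and 39.96 CPM in mutants against 72.1 and 73.7 CPM in wild type. The heme synthesis gene alas2 was not called (−0.39), except without mutant sample 1 (−0.52). How much blood remained in the ventricles is not known, and its part in these values was not tested. Of 18 thrombocyte genes 3 were higher and 4 lower, or 1 to 2 higher and 2 lower without any one of the 4 samples, and the defining gene itga2b was not called (−0.16). Of 33 lymphocyte genes 3 were higher and 4 lower, the higher ones numbering 1 without either mutant sample and 0 without wild-type sample 1. The T cell co-stimulator gene cd28l (−3.03) was among the lower ones.

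**Figure D3:**
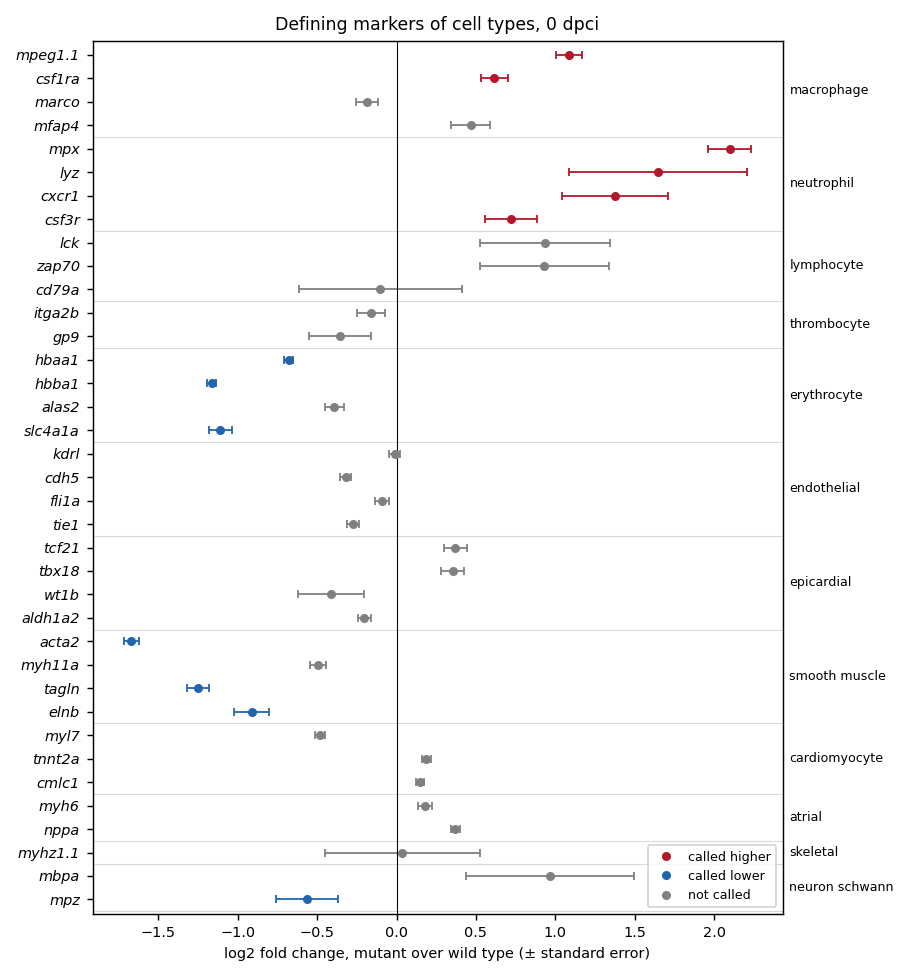
The log2 fold change of mutant over wild type, with its standard error, for the defining markers of each cell type that passed the count minimum in uninjured ventricles. Neutrophil markers lie to the right of 0, globin and smooth muscle genes to the left, and endothelial, epicardial, cardiomyocyte and atrial markers (grey) were not called.

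Many genes of the extracellular matrix were lower in uninjured mutants while the defining markers of epicardium and fibroblasts were not called. Of 76 epicardial and fibroblast genes 2 were higher and 26 lower (median −0.27). The lower members were mostly matrix genes. Collagen I, the main fibrillar collagen, is encoded by col1a1a, with 168 and 174 CPM in mutants against 335 and 303 CPM in wild type (by edgeR, log2 fold change −0.90 ± 0.035 SE, adjusted p = 7.06e-32), by col1a1b (−0.91) and by col1a2, with 189 and 192 CPM in mutants against 319.8 and 313 CPM in wild type. The collagen V gene col5a1 had 77.4 and 74 CPM in mutants against 164 and 161 CPM in wild type, and col12a1b, for a collagen that decorates fibrils, had 1.27 and 1.11 CPM in mutants against 6.97 and 5.96 CPM in wild type. Fibronectin, fn1a, had 33.6 and 31.4 CPM in mutants against 65.5 and 68.5 CPM in wild type, and the matricellular genes postnb and tnc had log2 fold changes of −1.25 and −1.5. The hyaluronan link protein gene hapln1a had 69.5 and 70.8 CPM in mutants against 154 and 155 CPM in wild type. These matrix genes had no overlap between the genotypes, as was the case for 71.8% of all tested genes.

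The defining transcription factor genes of epicardium and fibroblasts, tcf21 (0.37), tbx18 (0.35) and wt1b (−0.41), and the retinoic acid synthesis gene aldh1a2 (−0.20) were not called. For tcf21 the levels were 33.8 and 37.8 CPM in mutants against 28.8 and 26.6 CPM in wild type, above wild type in both mutant samples although below the threshold. Against the trend of the collagen genes, col10a1b (3.6) was higher. It had 27 and 50 counts in mutants against 3 and 4 in wild type, and passed the count minimum through the mutants only. Across the 32 collagen genes 4 were higher and 11 lower (median −0.34). The higher ones numbered 2 without mutant sample 2 or either wild-type sample. The collagen processing gene pcolcea (−0.81), the matrix-binding gene sparc (−0.60) and the membrane protease gene mmp14b (−0.66) were lower. Of 29 integrin subunits, which anchor cells to matrix, 2 were higher and 7 lower, among them itgav (−0.65), itgb5 (−0.59) and itga6a (−0.66). Among 42 metalloproteases and inhibitors 9 were higher, with mmp9 (1.2) and mmp13a in this group, and 9 were lower, such as the procollagen-cleaving protease gene adamts3 (−1.27).

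Of 34 mural cell genes 7 were lower (20.6%) and 5 higher (14.7%), against 12.5% of all tested genes in each direction. Contractile genes were among the lower ones. The smooth muscle actin gene acta2 had 74.9 and 69.8 CPM in mutants against 240.4 and 220.1 CPM in wild type (by edgeR, log2 fold change −1.67 ± 0.046 SE, adjusted p = 6.38e-40), and tagln had 19.8 and 21.6 CPM in mutants against 51.1 and 47.4 CPM in wild type. The pericyte proteoglycan gene cspg4 had 25.5 and 24.5 CPM in mutants against 75.3 and 75.1 CPM in wild type, and the growth factor receptor gene pdgfrb, used by pericytes and fibroblasts, had 36.8 and 33.6 CPM in mutants against 67.7 and 62.1 CPM in wild type. Not every mural gene moved this way, because the smooth muscle myosin gene myh11a stood at the threshold (−0.50, and −0.53 and called without mutant sample 1, −0.54 without wild-type sample 2) and the channel subunit gene kcne4 was higher (1.73). The genes named here do not stand for the whole list of 34.

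**Figure D4:**
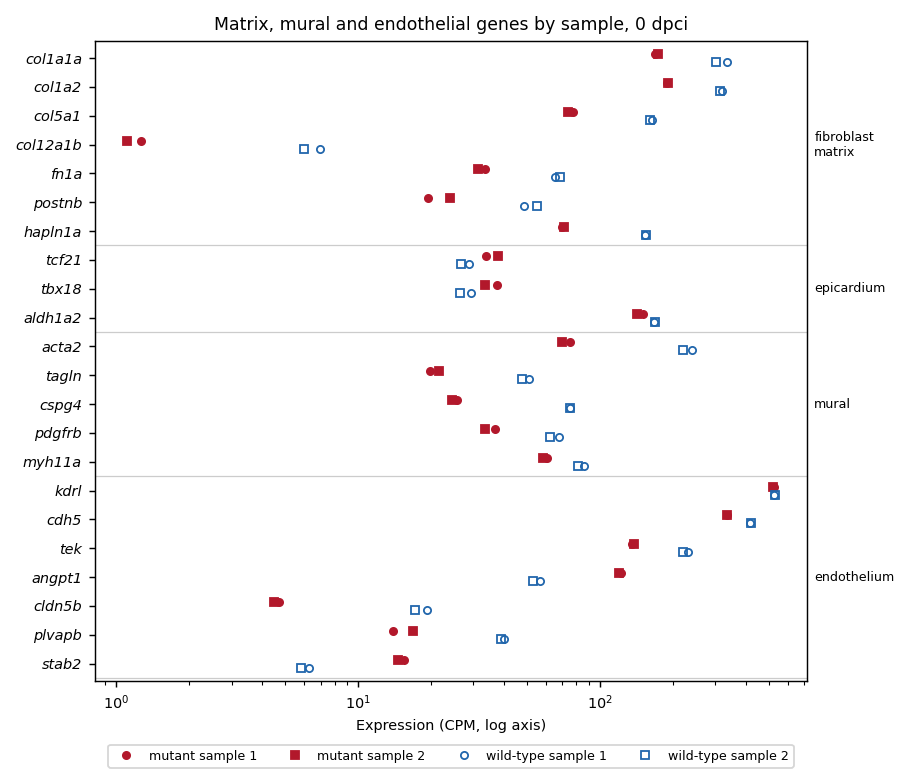
Expression in CPM on a log axis of fibroblast matrix, epicardial, mural and endothelial genes in the 2 uninjured mutant samples (filled red) and the 2 uninjured wild-type samples (open blue). Matrix genes and the mural genes acta2, tagln, cspg4 and pdgfrb lie lower in mutants, while kdrl shows overlapping levels.

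The defining endothelial genes were not called, and single vascular genes moved in both directions. The receptor gene kdrl had 525 and 518 CPM in mutants against 523 and 529 CPM in wild type and cdh5 had 337 and 335 CPM in mutants against 416 and 422 CPM in wild type, and neither was called. Below the threshold, cdh5 (−0.32), tie1 (−0.28) and fli1a (−0.091) were lower than wild type in both mutant samples, while kdrl overlapped. Of 71 endothelial and endocardial genes 6 were higher (8.45%) and 13 lower (18.3%). Together this is 26.8%, against 25.1% of all tested genes. The tight junction gene cldn5b had 4.7 and 4.48 CPM in mutants against 19.3 and 17.1 CPM in wild type (by edgeR, log2 fold change −1.99 ± 0.12 SE, adjusted p = 1.15e-22), and the vesicle diaphragm gene plvapb had 14 and 16.9 CPM in mutants against 39.9 and 39.1 CPM in wild type. The receptor genes aplnra, for apelin, and ramp2, a partner of the adrenomedullin receptor, had log2 fold changes of −1.13 and −0.90. In the angiopoietin pathway the ligand gene angpt1 had 122 and 119.7 CPM in mutants against 56.7 and 52.7 CPM in wild type, while its receptor gene tek had 135 and 138 CPM in mutants against 232 and 219.7 CPM in wild type and the competing ligand gene angpt2a (−1.36) was lower. The scavenger receptor gene stab2 (1.31), the guidance receptor gene robo4 (0.90), the decoy receptor gene flt1 (0.64) and the endocardial factor gene nfatc1 (0.75) were higher.

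Genes of the sarcomere, the Z-disc and the intercalated disc moved in both directions, more of them lower than higher. Of 84 such genes 11 were higher and 19 lower, or 35.7% called against 25.1% of all genes (median −0.18). Their summed level was 165423 and 168876 CPM in mutants against 191262 and 192657 CPM in wild type. The troponin T gene tnnt2a had 5397 and 5879 CPM in mutants against 4941 and 4961 CPM in wild type and was not called. The troponin C gene tnnc1a had 2008 and 2139 CPM in mutants against 4746 and 4912 CPM in wild type (by edgeR, log2 fold change −1.22 ± 0.030 SE, adjusted p = 2.92e-42). Lower members included the mechanosensing and Z-disc genes csrp3, xirp2a and nrap, with 311 and 324 CPM in mutants against 745 and 742 CPM in wild type for csrp3, 133 and 136 CPM in mutants against 362 and 388 CPM in wild type for xirp2a and 168 and 167 CPM in mutants against 349 and 367 CPM in wild type for nrap. The troponin I gene tnni1d had 2.96 and 4.19 CPM in mutants against 39.8 and 42.4 CPM in wild type, and the skeletal type actin gene acta1a had 192 and 194 CPM in mutants against 624 and 624 CPM in wild type. Z-disc genes were not uniform, since fhl2b had 240.2 and 229 CPM in mutants against 115 and 114 CPM in wild type and tcap had 189 and 194 CPM in mutants against 93.9 and 97.4 CPM in wild type. The myosin chaperone gene unc45b (0.84) and the myosin-binding gene mybphb (1.17) were higher.

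Of 83 calcium handling genes 11 were higher (13.3%) and 12 lower (14.5%), near the background of 12.5% in each direction, and nothing is read from the count. The calcium store protein gene casq2 had 487 and 488 CPM in mutants against 716 and 739 CPM in wild type, and the calcium channel subunit gene cacna2d1a had 33.6 and 38.4 CPM in mutants against 95 and 93.5 CPM in wild type. The scaffold gene akap6, which places kinases near calcium release channels, had 3.34 and 3.47 CPM in mutants against 11.7 and 11.3 CPM in wild type. The T-type channel gene cacna1g (0.86) and the beta-adrenergic receptor gene adrb1 (1.0) were higher. The sarcoplasmic pump gene atp2a2a (0.085) and the main release channel gene ryr2b (−0.36) were not called.

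Of 14 genes of the Na,K-ATPase, the pump that keeps the membrane gradient, 2 were higher (14.3%) and 2 lower (14.3%). This is near the background of 12.5% in each direction, and nothing is read from the count. Single subunit genes are given for their values. The catalytic subunit gene atp1a3a had 35.9 and 34.2 CPM in mutants against 1.79 and 1.73 CPM in wild type, whereas atp1a1b had 6.67 and 6.8 CPM in mutants against 11.9 and 12.2 CPM in wild type. The beta subunit gene atp1b1b had 2.96 and 2.41 CPM in mutants against 53.2 and 52.9 CPM in wild type, while atp1b3b had 29.7 and 29.2 CPM in mutants against 11.3 and 12.4 CPM in wild type. The catalytic gene atp1a1a.1 (−0.30) and the beta gene atp1b1a (−0.21) were not called.

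Among 39 further channel and gap junction genes 10 were higher and 5 lower (3 without mutant sample 2). The pacemaker channel gene hcn4 had 19.8 and 18.9 CPM in mutants against 8.24 and 8.16 CPM in wild type, and the delayed rectifier gene kcnq1.1 had 52.3 and 50.9 CPM in mutants against 22.4 and 21.6 CPM in wild type, while the Erg channel gene kcnh6a had 155 and 153 CPM in mutants against 247 and 244 CPM in wild type. Of 55 myocardial transcription factor genes 6 were higher (10.9%) and 5 lower (9.09%). These shares lie near or below the 12.5% of all tested genes in each direction, and nothing is read from the count. The conduction system gene tbx3a (1.09) was higher, and the muscle factor gene mef2aa (−0.62) was lower. The wall-stress hormone gene nppb had 251 and 268 CPM in mutants against 141 and 145 CPM in wild type, while nppa was not called (0.37).

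More DNA replication genes were lower than higher. Of 65 replication genes 2 were higher and 13 lower (median −0.17). The replicative helicase is a ring of Mcm2 to Mcm7, and 5 of its 6 genes were lower. They were mcm2 (−1.02), mcm3 (−1.15), mcm4 (−0.63), mcm6 (−0.83) and mcm7 (−0.72), and mcm5 was not called (−0.27). For mcm4 the call was lost without wild-type sample 2 (−0.42). The gene uhrf1, which maintains DNA methylation behind the fork, had 4.42 and 5.21 CPM in mutants against 12.6 and 9 CPM in wild type. The sliding clamp gene pcna (−0.009) and the proliferation marker mki67 (0.25) were not called. Of 73 mitosis genes 8 were higher (11%) and 12 lower (16.4%), and fewer were higher when any 1 sample was left out. These shares lie near the background of 12.5% in each direction, and nothing is read from the count. Single members are given for their values. In this list ccnf, the cyclin F gene, had 0.517 and 0.337 CPM in mutants against 14.8 and 16.1 CPM in wild type. The mitotic cyclin gene ccnb1 had 2.63 and 1.93 CPM in mutants against 0.367 and 1.18 CPM in wild type, and its log2 fold change ran from 0.94 without wild-type sample 1 to 2.62 without wild-type sample 2.

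Among 66 genes of cell cycle arrest, the Bcl-2 family and the caspases 5 were higher and 14 lower, the higher ones numbering 2 without mutant sample 2 and 3 without wild-type sample 2. The cell cycle inhibitor gene cdkn1a had 3.85 and 3.37 CPM in mutants against 8.08 and 7.99 CPM in wild type, and the death gene bbc3, encoding Puma, had 1.27 and 1.16 CPM in mutants against 8.85 and 7.9 CPM in wild type. The ubiquitin ligase gene mdm2 (−0.55) was lower. Genes of FoxO and glucocorticoid responses divided, with 10 of 42 higher and 7 lower. The glucocorticoid target gene fkbp5 had 14.3 and 13.8 CPM in mutants against 8.65 and 7.9 CPM in wild type, but the glucocorticoid target gene tsc22d3 (−0.77) and the muscle ubiquitin ligase gene fbxo32, with 22.3 and 19.8 CPM in mutants against 52.3 and 54.2 CPM in wild type, were lower.

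The signalling lists had called shares of 26.6% for TGF-beta, 27.1% for Wnt, 20.7% for Notch and 21.9% for growth factor genes. These lie near or below the 25.1% of all tested genes, and nothing is read from the counts. Single members are given for their values. Ligands and inhibitors of the TGF-beta family gave 11 higher and 6 lower of 64 genes. The latent TGF-beta binding protein gene ltbp1 had 13 and 11.8 CPM in mutants against 45.4 and 48.3 CPM in wild type, and the receptor decoy gene bambib and the repressor gene skib had log2 fold changes of −1.61 and −1.01. The activin subunit genes inhbab (1.31) and inhbb (1.08) were higher, as was ccn1 (0.88). Of 48 Wnt genes 6 were higher, with the ligands wnt16 (1.63) and wnt4 (1.17), and 7 were lower, with the receptor fzd10 (−3.59). Of 29 Notch genes 1 was higher and 5 lower, among them the ligand jag1a (−1.32) and the target gene hey2 (−0.71). Of 64 neuregulin, FGF, PDGF and IGF genes 10 were higher and 4 lower, including the FGF feedback inhibitor gene spry4 (1.12) and the receptor gene igf1ra (−1.15).

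The baseline difference carried over to injured ventricles only in part. Each later time point has its own 2 mutant and 2 wild-type samples, so that calls there are separate measurements. Of the 2181 genes higher at 0 dpci, 498 (22.8%) were again higher at 2 dpci, 642 (29.4%) at 7 dpci and 553 (25.4%) at 21 dpci, where 8.57%, 6.99% and 9.71% of all tested genes were higher. Of the 2183 genes lower at 0 dpci, 453 (20.8%), 560 (25.7%) and 315 (14.4%) were again lower, where 8.51%, 5.98% and 6.89% of all tested genes were. The opposite call was made for 168, 50 and 187 of the higher genes and for 148, 64 and 225 of the lower ones. The call was the same throughout, from 0 to 21 dpci, for 130 higher and 115 lower genes, and it was made at 0 dpci only for 873 (40%) and 1039 (47.6%). The genotype difference itself changed from 0 to 21 dpci (interaction term, edgeR adjusted p under 0.05) in 1233 (56.5%) of the higher and 1500 (68.7%) of the lower genes, against 38.6% of all tested genes. From 0 to 2 dpci it changed in 1290 (59.1%) and 1277 (58.5%), against 36.5% of all, and from 0 to 7 dpci in 991 (45.4%) and 1112 (50.9%), against 25.8% of all. The interaction subtracts the same 0 dpci difference that chose these genes, so their larger shares are built in by the choice and nothing is read from them.

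The clock genes kept their direction at 7 dpci, and many had turned round at 21 dpci. The log2 fold change of per1a was 4.36 at 7 dpci and −2.0 at 21 dpci, and that of nr1d1 was 3.21 and −1.76. For arntl1b it was −1.69 and 1.51, and for nfil3-5 −3.53 and 1.59. At 21 dpci 2 of 20 repressors were higher and 11 lower, against 13 and 4 at 7 dpci. Of the 41 immediate early genes 15 were higher and 0 lower at 2 dpci (median 0.32). At 7 dpci 1 was higher and 6 lower (median −0.21), and at 21 dpci 15 were higher and 4 lower (median 0.26). Over all tested genes 8.57%, 6.99% and 9.71% were higher at these time points, and 8.51%, 5.98% and 6.89% lower. The gene atf3 was among the 4 lower members of the list at 21 dpci, with −1.96.

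Several matrix genes that were lower at baseline were higher after injury, as fn1a had a log2 fold change of 0.59 at 2 dpci and 0.90 at 21 dpci and col12a1b had 1.03 and 1.12. For postnb the values were −0.53 at 2 dpci and 1.16 at 21 dpci. The collagen gene col1a1a was called at none of the later time points, with 0.37, 0.094 and 0.17, and neither was hbba1, with −0.12, −0.34 and −0.024. The list of 76 epicardial and fibroblast genes had 14 higher and 2 lower members at 2 dpci, 6 and 6 at 7 dpci, and 13 and 8 at 21 dpci. Over all tested genes 8.57% were higher and 8.51% lower at 2 dpci, 6.99% and 5.98% at 7 dpci, and 9.71% and 6.89% at 21 dpci. The counts of the list at 7 dpci lie near these shares, and nothing is read from them.

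Several immune genes kept their baseline direction at every time point. The gene acod1 had log2 fold changes of 1.72, 1.87 and 1.99 at 2, 7 and 21 dpci, psmb8a had 0.90, 1.1 and 1.14, and itgam had −2.62, −2.17 and −2.76. Neutrophil genes were less steady. For mpx the value was 0.026 at 2 dpci, where it was not called, and 1.19 and 0.73 later. Of the 26 neutrophil markers 4 were higher and 1 lower at 2 dpci, 15 and 0 at 7 dpci, and 12 and 1 at 21 dpci. Over all tested genes 8.57%, 6.99% and 9.71% were higher at these time points, and 8.51%, 5.98% and 6.89% lower.

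**Figure D5:**
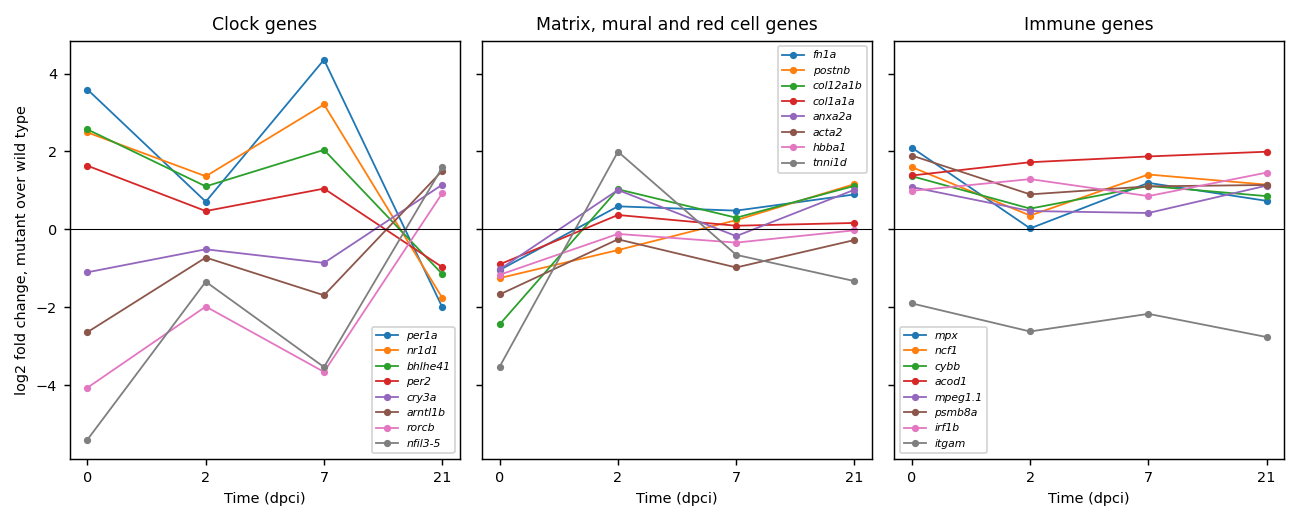
The log2 fold change of mutant over wild type at 0, 2, 7 and 21 dpci for selected clock genes, matrix, mural and red cell genes, and immune genes, each from 2 mutant and 2 wild-type samples and with lines joining the values of a gene. The clock genes shown change sign between 7 and 21 dpci, several matrix genes are above 0 after injury, and the immune genes shown keep their side of 0.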

How the data were processed

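Total RNA of zebrafish ventricles was sequenced as bulk RNA-seq. The deposited values are raw counts of reads per gene, which the authors made with FastQC, STAR and featureCounts on GRCz11 (danRer11), per the submitters' processing notes; versions and strand setting are not given in the sources used here. The study's own test was DESeq2 with a correction for batch; which samples formed a batch is not given in the sources used here, so no batch term was fitted, and batch and genotype cannot be told apart here. From these counts, edgeR 4.0.16 (R 4.3.3) fitted 1 coefficient per condition over all 16 samples, with TMM scaling, and its quasi-likelihood test compared uninjured mutants with uninjured wild type. P-values were adjusted over all 17413 tested genes. The standard error is the log2 fold change divided by the square root of F.

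Both samples of a genotype differed by more than sampling noise (chi-square per degree of freedom 2.20 in mutants and 2.37 in wild type) and were kept as 2 samples. In each list, the rule for named genes took up to 6 called members in each direction. They needed a mean of at least 5 CPM in one genotype. The rule also took members completing a complex or pair with such members, defining markers and genes the study names. Last, it took the 20 largest changes in each direction at a mean of at least 10 CPM. These came from called genes whose samples did not overlap between genotypes. The list and size parts of the rule gave 179 of the 274 named genes. Names beyond the rule were chosen after their values were seen. A few genes are not reported here. Members and gene lists were chosen with earlier results of these data known. Lists are described by counts and medians, with no test of a list. Alternatives were DESeq2 1.42.0, a fit over the 4 uninjured samples, other size factors, a replicate block, other count minimums, stricter thresholds and leaving out each sample. The scripts were tested on simulated counts.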

Additional observations from a re-analysis of the deposited data

Results flagged for a closer look

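These genes were picked out because the genotype difference at 0 dpci and at a later time point had opposite calls and differed by more than 3 on the log2 scale, by the interaction term of the edgeR fit at an adjusted p under 0.05. Each value is the genotype difference after injury minus that at 0 dpci. The limit of 3 was set after the data had been seen, and causes were not tested. These genes had to be called at 0 dpci, and the interaction subtracts that difference, so its size is in part built in by the choice.

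From 0 to 21 dpci several clock genes turned round. The interaction was −5.59 for per1a, −3.29 for per1b, −4.25 for nr1d1, −3.71 for bhlhe41, −3.87 for ciarta and −3.33 for dbpa, all higher in mutants at baseline and lower at 21 dpci. It was 4.14 for arntl1b, 4.99 for rorcb and 6.99 for nfil3-5, all lower at baseline and higher at 21 dpci. Since the hour of collection is not known at any time point, it cannot be told apart from the genotype in these values.

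Of the flagged genes, the stress and transcription factor genes atf3, creb5a and hsp70.1 were higher at baseline and lower at 21 dpci. Their values were −6.14, −5.22 and −3.3, and that of the clearance receptor gene npr3, which turned likewise, was −3.88. As a list, the 41 immediate early genes had 15 higher and 4 lower members at 21 dpci. From 0 to 7 dpci the interaction was −3.14 for fosb. The death gene bbc3, lower at baseline, had 3.6 from 0 to 7 dpci and 3.49 from 0 to 21 dpci, and the scaffold gene akap6 had 3.59 from 0 to 21 dpci.

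The collagen gene col12a1b, lower in mutants at baseline and higher after injury, had 3.47 from 0 to 2 dpci and 3.56 from 0 to 21 dpci. The troponin I gene tnni1d had 5.52 from 0 to 2 dpci.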

How the results depend on the processing

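The counts of 2181 higher and 2183 lower genes moved by over 1.5 times only under stricter thresholds. They were 1097 and 1102 with the threshold of 0.5 inside the test (glmTreat) and 937 and 860 with a log2 fold change over 1. They were 2083 and 2273 with the 4 uninjured samples alone, 1846 and 1991 with DESeq2, 2099 and 2274 with RLE size factors, 2150 and 2326 with no count minimum, and 1673 and 1738 with a minimum of 50 counts. Without each sample in turn the counts ran from 1957 to 2016 and from 1947 to 1993, where the lone sample was assumed to vary like the other groups. Sample numbers did not pair the samples (correlation of deviations 0.0112), and with the number as a replicate block the counts were 2175 and 2174. Totals do not show which genes kept their call. Of the 4364 called genes, 4217 kept it with the 4 uninjured samples alone and 3785 with DESeq2. With a minimum of 50 counts 3334 kept it, and 985 were not tested. No called gene was called in the opposite direction under any of these alternatives. The counts of genes called again after injury, whose alternatives were chosen after seeing the data, stayed within 1.5 times. Counts of lists with few called members moved by more, and not all of them are given beside the lists. Without 1 sample the higher members numbered 0 to 3 of the lymphocyte list (3 with all samples), 1 to 2 of the thrombocyte list (3), 1 to 4 of the epicardial and fibroblast list (2), 1 to 3 of the Notch list (1), 1 to 3 of the fatty acid synthesis list (2) and 2 to 3 of the collagen list (4). List medians moved as well. When 1 sample was left out, 24 to 25 of the 64 list medians shifted by more than their spread between replicate samples. The neutrophil median, 0.88 with all samples, then ran from 0.67 to 1.12. With 2 samples per genotype, differences near the threshold of 0.5 cannot be placed on either side of it.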

Other observations

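Several named genes outside the lists were among the 20 with the largest changes in either direction at a mean of at least 10 CPM. The natriuretic peptide clearance receptor gene npr3 had 34.1 and 32.1 CPM in mutants against 3.67 and 4.14 CPM in wild type (by edgeR, log2 fold change 3.08 ± 0.11 SE, adjusted p = 8.66e-34), next to the higher nppb. The bZIP factor gene creb5a had 44.4 and 44.1 CPM in mutants against 7.99 and 6.59 CPM in wild type, and the mitochondrial ATP-Mg carrier gene slc25a25a had 17.3 and 16.8 CPM in mutants against 3.18 and 2.54 CPM in wild type. On the lower side, the taurine transporter gene slc6a6a had 1.18 and 1.21 CPM in mutants against 9.46 and 10.8 CPM in wild type, and the relaxin receptor gene rxfp1 had 1.79 and 1.69 CPM in mutants against 9.83 and 10.6 CPM in wild type. The seipin-like lipid droplet gene bscl2l had 1.88 and 1.93 CPM in mutants against 10.7 and 11.5 CPM in wild type, lower together with scd and plin2. The Wnt-inactivating enzyme gene notum2 had 0.846 and 0.819 CPM in mutants against 16.7 and 14 CPM in wild type, lower together with fzd10. Only called genes whose samples did not overlap between genotypes could be among the 20 largest changes, so the lack of overlap was set by the choice.

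The neighbourhood of nr4a1 was also read, because a mutant line carries the chromosome of its founder. Gene order was taken from the RefSeq annotation of GRCz12tu, which matched 82.2% of the tested genes and of which 24% were called. On the chromosome of nr4a1, 159 of 543 matched genes (29.3%) were called, the highest share of 25 chromosomes, whose shares ran from 17.9% to 29.3%. Of the 50 tested genes nearest to nr4a1, 25 on each side, 16 (32%) were called, and of the nearest 100 genes 36 (36%) were called, while of the nearest 20 only 4 (20%) were. These shares were looked up after the data had been seen and carry no test, and the part of linked sequence differences in the calls was not tested.

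In 2 genes the mutants had at most 3 counts in each sample where wild type had at least 100 in each, and in 1 gene the reverse was seen. Their counts in mutants and wild type were 1 and 0 against 193 and 202, 2 and 1 against 110 and 105, and, in the reverse case, 1019 and 1022 against 3 and 3.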
